A study of Mus musculus with 6 samples.

Results

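Complement genes were followed in the spleens of mice given perfluorooctane sulfonate (PFOS), a persistent fluorinated surfactant. The genes were the C1q chains C1qa, C1qb and C1qc, properdin (Cfp), and 5 components for which the liver is the main source, C3, C4b, Cfb, C9 and Mbl2. Their probe sets were taken wherever the platform annotation gave one of these 9 symbols alone, which found 10 of the 45101 probe sets of the array. These 10 probe sets stood for 7 genes: 5 probe sets for the C1q chains, 2 for Cfp, and 1 each for Cfb, C9 and Mbl2. No probe set carried C3 or C4b alone, so neither gene was analysed here under its own name.

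Gene expression was measured on 6 Affymetrix Mouse430_2 arrays of whole spleen from Balb/c mice aged 6 to 8 weeks. The titles call the arrays biological replicates, 3 per group, which is read here as 1 mouse per array. The 3 control mice were untreated, and the labels name no vehicle for them. The 3 PFOS mice received 10 mg per kg body weight per day by stomach tube for 3 weeks. The labels call all 6 mice female, but Xist, the RNA of the inactive X chromosome, lay between 5.62 and 5.86 on the log2 scale, while the Y-linked Eif2s3y lay between 9.62 and 9.91, in all 6 arrays, which goes against that label in both groups alike. The values are log2 expression from RMA, a method that equalizes the arrays, so every change is relative to the other transcripts of the same array. In whole tissue, fewer cells of a type and less RNA per cell cannot be told apart.

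Complement is a cascade of plasma proteins that tags microbes and dying cells for uptake and can pierce membranes. It starts by the classical pathway when C1q binds antibody or cell debris, by the lectin pathway when mannose-binding lectin (Mbl2) binds sugars, or by the alternative pathway, in which factor B (Cfb) forms the convertase that properdin stabilizes. All routes meet at C3 and end in a pore built of C5 to C9. Most plasma components come from hepatocytes, but C1q comes mainly from macrophages and dendritic cells, and properdin from myeloid cells such as neutrophils and monocytes. Factor B is made by liver and by macrophages.

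The stretches just before the transcription start are shown for the member genes listed in the RefSeq promoter table (GRCm38.p6), which held 5 of the 7 genes, because these genes went opposite ways in the arrays. Each line gives the 250 bases before the start, 5′ to 3′ on the gene's strand, with capitals for matches to any of 3 motifs searched on both strands. These were GAGGAA (the PU box of the myeloid factor PU.1), GTTAAT (the core of sites for the liver factor HNF1) and TTGCNNAA (C/EBP), and no matches overlapped. C1qb lies at chr4:136886201-136886450 (minus strand), C1qc at chr4:136892915-136893164 (minus), Cfp at chrX:20931556-20931805 (minus), C9 at chr15:6445096-6445345 (plus) and Mbl2 at chr19:30232678-30232927 (plus).
C1qb: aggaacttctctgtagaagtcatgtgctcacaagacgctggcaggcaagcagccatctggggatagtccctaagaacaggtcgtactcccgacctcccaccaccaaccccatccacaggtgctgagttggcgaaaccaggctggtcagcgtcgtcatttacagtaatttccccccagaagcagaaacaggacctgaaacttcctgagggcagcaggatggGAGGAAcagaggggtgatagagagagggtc
C1qc: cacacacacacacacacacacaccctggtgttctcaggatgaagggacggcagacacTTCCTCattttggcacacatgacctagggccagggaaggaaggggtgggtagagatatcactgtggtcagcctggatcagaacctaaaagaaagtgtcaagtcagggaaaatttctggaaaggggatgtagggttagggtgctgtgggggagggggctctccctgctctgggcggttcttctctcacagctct
Cfp: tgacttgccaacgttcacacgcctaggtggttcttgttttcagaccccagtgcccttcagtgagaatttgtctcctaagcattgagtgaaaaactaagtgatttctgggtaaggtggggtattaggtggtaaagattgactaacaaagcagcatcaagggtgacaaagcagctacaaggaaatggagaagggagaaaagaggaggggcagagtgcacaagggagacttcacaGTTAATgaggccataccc
C9: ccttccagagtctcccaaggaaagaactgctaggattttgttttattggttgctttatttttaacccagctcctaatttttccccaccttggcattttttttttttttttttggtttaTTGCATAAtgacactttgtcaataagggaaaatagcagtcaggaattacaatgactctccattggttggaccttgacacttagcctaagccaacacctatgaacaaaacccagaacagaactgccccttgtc
Mbl2: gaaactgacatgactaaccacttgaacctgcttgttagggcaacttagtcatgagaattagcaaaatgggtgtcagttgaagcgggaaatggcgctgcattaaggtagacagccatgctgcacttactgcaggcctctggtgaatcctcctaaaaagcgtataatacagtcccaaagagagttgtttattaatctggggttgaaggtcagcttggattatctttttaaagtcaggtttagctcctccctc

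The PU box letters were found once in C1qb, 30 bases before the start, and once in C1qc, 193 bases before it, where 23.3% of 32851 promoter windows of the same length held a match. The C9 window held 1 C/EBP match, at 132 bases before the start (9.56% of all windows), and the Cfp window held 1 HNF1 match, at 18 bases (6.43%). The Mbl2 window held no match to the 3 motifs. A match describes these letters and is not a bound site.

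Transcripts of the C1q chains were higher in PFOS spleens by 1.10-fold to 1.34-fold, and 1 of the 2 properdin probe sets was higher by 1.29-fold. The liver-made C9 was 8.18-fold lower and Mbl2 2.34-fold lower. Cfb was 1.14-fold lower in the deposited values, but higher when arrays were scaled on the labelling spikes. A probe set was called at an adjusted p under 0.05 from limma with Benjamini-Hochberg adjustment over all 45037 non-control probe sets. Of the 7 probe sets of C1q and properdin, 6 were called higher and 0 lower, where 30.2% of all probe sets were called higher. All 3 probe sets of Cfb, C9 and Mbl2 were called lower, where 19.3% of all were; 2 of these 3 were at least 2-fold lower, a change seen in 1.50% of all probe sets. The groups did not overlap for 9 of the 10 probe sets, against 58.3% of all probe sets. Of all calls, 61.0% were higher as deposited, 43.0% with arrays scaled on ribosomal protein genes and 96.4% with arrays scaled on the labelling spikes. The median change was 0.31 for C1q and properdin, -1.23 for the liver-made components and 0.04 for all probe sets. With only 3 liver-made probe sets, their median is the change of Mbl2 itself.

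**Figure D1:**
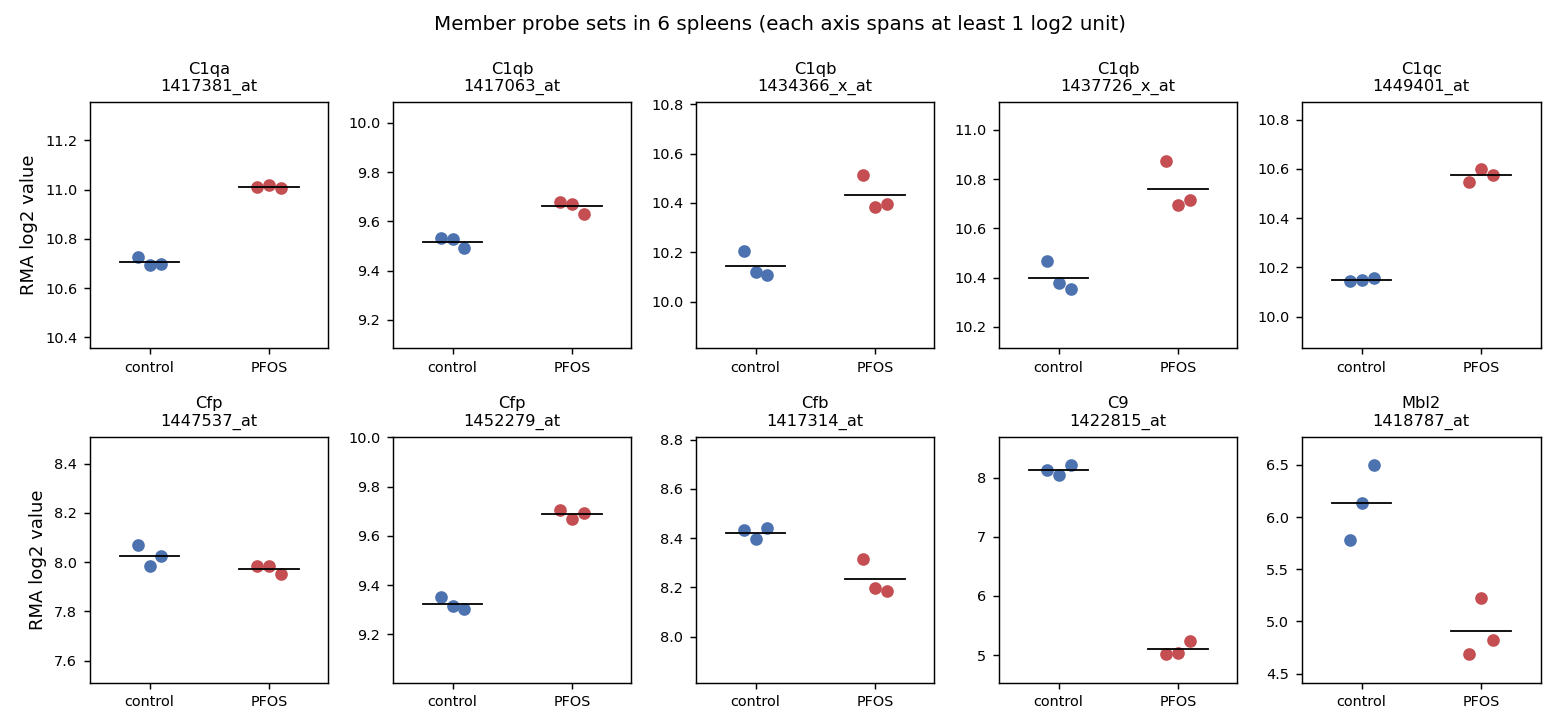
RMA log2 value of each of the 10 member probe sets (vertical axes) in the 3 control and 3 PFOS spleens (points), with group means (bars). PFOS spleens lie above all controls in the C1q panels and in Cfp 1452279_at, and below all controls in the panels of Cfb, C9 and Mbl2 (for Cfb not with scaling on the labelling spikes, where it turned to higher).

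C1qa, C1qb and C1qc encode the A, B and C chains that assemble into 1 C1q molecule, and their genes are direct neighbours in the RefSeq annotation. C1qa (1417381_at) read 10.72, 10.69 and 10.70 in the control spleens and 11.01, 11.02 and 11.01 in the PFOS spleens. The PFOS spleens thus lay above every control, with a gap far wider than the spread within either group (SD 0.02 in control and 0.01 in PFOS, n = 3). The change was 0.31 ± 0.03 (SE; 95% confidence interval 0.24 to 0.38; limma adjusted p = 0.000133).

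C1qc (1449401_at) rose most of the 3 chains. Its control values were 10.15, 10.15 and 10.16, and its PFOS values 10.55, 10.60 and 10.58. Again no PFOS spleen reached down to a control, and the change of 0.42 ± 0.03 (95% confidence interval 0.35 to 0.50; limma adjusted p = 3.07e-05) corresponded to 1.34-fold.

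C1qb was measured by 3 probe sets that agreed in direction and differed in size. Probe set 1417063_at read 9.53, 9.53 and 9.49 in control and 9.68, 9.67 and 9.63 in PFOS, a change of 0.14 ± 0.03 (95% confidence interval 0.07 to 0.22; limma adjusted p = 0.00858). The other two have the suffix _x_at, which marks probes that can also match other transcripts. Probe set 1434366_x_at read 10.21, 10.12 and 10.11 in control and 10.52, 10.38 and 10.39 in PFOS, a change of 0.29 ± 0.05 (95% confidence interval 0.17 to 0.40; limma adjusted p = 0.00202). Probe set 1437726_x_at read 10.47, 10.38 and 10.35 in control and 10.88, 10.69 and 10.71 in PFOS, a change of 0.36 ± 0.06 (95% confidence interval 0.23 to 0.49; limma adjusted p = 0.00148). In both _x_at probe sets the arrays numbered 1 were the highest of their group. The intervals of 1417063_at and 1437726_x_at did not overlap, so the size of the C1qb rise depends on the probe set. With arrays scaled on ribosomal protein genes, the rise at 1417063_at was 0.09 and no longer called (limma adjusted p = 0.0621).

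Properdin stabilizes the alternative pathway convertase, and its 2 probe sets did not agree. Cfp 1452279_at read 9.35, 9.31 and 9.30 in control and 9.70, 9.67 and 9.69 in PFOS. All PFOS spleens were higher than all controls there, by 0.37 ± 0.03 (95% confidence interval 0.29 to 0.44; limma adjusted p = 7.23e-05). Cfp 1447537_at read 8.07, 7.98 and 8.03 in control and 7.98, 7.98 and 7.95 in PFOS. There the groups overlapped and the difference of -0.05 ± 0.03 was not called (95% confidence interval -0.13 to 0.03; limma adjusted p = 0.250). This second difference was called lower (-0.11) with arrays scaled on ribosomal protein genes and called higher (0.42) with arrays scaled on the labelling spikes. No detection calls were used here, so neither probe set could be judged present or absent.

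**Figure D2:**
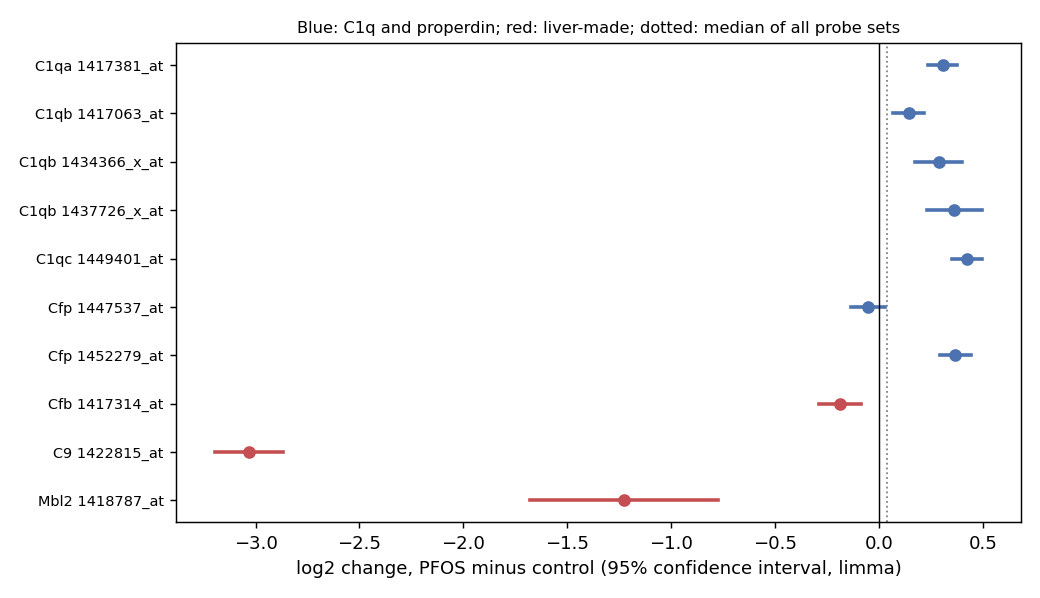
Change of each member probe set on the log2 scale, PFOS minus control (horizontal axis), with the 95% confidence interval from limma; the dotted line is the median of all probe sets (0.04). The C1q probe sets and Cfp 1452279_at lie to the right of 0 (0.14 to 0.42), Cfp 1447537_at spans 0, and C9 lies farthest to the left at -3.03; Cfb, at -0.19 here, lies to the right of 0 with scaling on the labelling spikes.

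C9 encodes the last component of the membrane attack complex, the subunit that polymerizes into the pore. Its probe set read 8.13, 8.05 and 8.22 in control and 5.01, 5.04 and 5.25 in PFOS. Every PFOS spleen was far below every control, with a change of -3.03 ± 0.07 (95% confidence interval -3.20 to -2.87; limma adjusted p = 9.69e-08). The PFOS mean of 5.10 lay under 5.62, the 40th percentile of all probe sets, where background weighs on an RMA value, so the size of the fall depends on the background of the array.

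Mbl2 encodes mannose-binding lectin C, a sugar-binding starter of the lectin pathway. It read 5.78, 6.13 and 6.50 in control and 4.68, 5.23 and 4.82 in PFOS. The groups did not overlap, although Mbl2 had the widest spread of the 10 probe sets (SD 0.36 in control and 0.28 in PFOS, n = 3). The change was -1.23 ± 0.19 (95% confidence interval -1.68 to -0.77; limma adjusted p = 0.00155). Its PFOS mean of 4.91 and its mean over the 6 arrays of 5.52 were both under 5.62, so it was the only one of the 10 probe sets that a filter at the 40th percentile would remove.

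Cfb encodes factor B, the protease of the alternative pathway convertase. It read 8.43, 8.40 and 8.44 in control and 8.32, 8.20 and 8.19 in PFOS. The PFOS spleens lay below the controls, with a change of -0.19 ± 0.04 (95% confidence interval -0.29 to -0.09; limma adjusted p = 0.00848), which turned to 0.29 (limma adjusted p = 0.000499) with arrays scaled on the labelling spikes. The intervals of Cfb and C9 were far apart, so the 3 components grouped as liver-made did not share 1 size of change.

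A probe set annotated to both C4a and C4b was not a member, since the copies cannot be told apart there. C4 is the thioester protein that the classical and lectin pathways deposit on surfaces. This shared probe set read 10.96, 10.97 and 10.97 in control and 11.14, 11.12 and 11.18 in PFOS. It was higher in every PFOS spleen, by 0.18 ± 0.03 (limma adjusted p = 0.00244), a direction opposite to that of C9, Mbl2 and, in the deposited values, Cfb.

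By array, the median deviation of the 7 C1q and properdin probe sets from their control means was 0.37, 0.29 and 0.30 in the PFOS spleens. That of the 3 liver-made probe sets was -1.45, -0.91 and -1.32. In each PFOS spleen the liver-made median was the value of Mbl2, which lay between those of C9 and Cfb. In control spleens the same medians stayed between -0.02 and 0.03 for C1q and properdin and between -0.03 and 0.09 for the liver-made probe sets. The difference between the class medians was -1.53, a description without a test, since the 2 classes were drawn up with earlier results known. It sets the change of Mbl2 against that of C1qa, the middle probe sets of their classes.

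Profiles over the 6 arrays were compared by Euclidean distance after each was centred on its mean, among 18193 genes with 1 symbol at their probe set of highest mean. The genes closest to C1qa were Arhgap45 (distance 0.012), Actn1 (0.015) and Cybb (0.019). Those closest to C1qb were Dmxl1, Zfand3 and Snx5 (0.048 to 0.051), and those closest to C1qc were Il18, Lpar1 and Pde2a (0.019 to 0.030). Among all genes ranked by distance from C1qa, C1qc stood at 2040 and C1qb at 2638. The C1q chains were therefore not each other's nearest profiles. The distance takes in the size of the change, which was 0.31 for C1qa, 0.36 for C1qb (here 1437726_x_at) and 0.42 for C1qc. Cfp lay closest to Dennd1b, Slc25a36 and Rfx7 (0.026 to 0.027), and Cfb to Noc2l, Tlcd2 and Hsd11b2 (0.039 to 0.043). C9 lay closest to Serpina1c (0.217), Hp (0.232) and Kng1 (0.238), which encode secreted plasma proteins of the liver. Mbl2 lay closest to Ces1c, Saa4 and Tac2 (0.478 to 0.512), distances that reflect its wider spread.

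The other genes of the pathway were read from a list of 55 symbols, of which 41 were measured, each at its probe set of highest mean. Of the 41, 15 were called higher and 14 lower, with 6 at least 2-fold lower and a median change of 0.05. For 12 of the 41, both group means lay under 5.62, where background weighs on the value. Over all genes 32.9% were called higher, 20.0% lower and 2.19% at least 2-fold lower, with a median of 0.05. These shares also stand beside the counts of each role below. With arrays scaled on the labelling spikes, 31 of the 41 were called higher and 8 lower, and with scaling on ribosomal protein genes 8 were higher and 15 lower. Of the calls over all probe sets, 96.4% and 43.0% were higher under these scalings. The shares of all genes called were not counted under them, so such counts here and below have no share beside them.

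Terminal components mostly fell, as C9 did. Of 5 measured, 4 were lower and 1 higher, with a median change of -0.86. C8a, the chain of C8 that inserts into the membrane, fell by 2.09 on the log2 scale (SE 0.09; limma adjusted p = 1.59e-06), from 6.87 to 4.79. Hc, which encodes C5, fell by 1.49 (SE 0.08; limma adjusted p = 6.29e-06), from 6.01 to 4.52. C8g fell by 0.86, and C8b changed by -0.31, which turned to 0.16 and was not called with scaling on the labelling spikes. C6 alone was higher, by 0.23 ± 0.04 (limma adjusted p = 0.00174). The PFOS means of C8a, Hc and C8g were under 5.62, as that of C9 was.

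Among the genes that start the cascade, 3 of 10 were higher, 2 lower and 5 not called, with a median of 0.01. With scaling on the labelling spikes 9 were higher and 1 lower (median 0.48), and with ribosomal scaling 1 was higher and 3 lower. C1s1, the protease that C1q carries, rose by 0.23 ± 0.04 (limma adjusted p = 0.00155), while its partner C1ra, at 0.07 ± 0.03, was not called (limma adjusted p = 0.127). C2, whose product pairs with C4 in the classical convertase, rose by 0.16 ± 0.04, and all 3 of its probe sets had that sign. Fcna, a ficolin of macrophages, rose by 0.09 ± 0.03 (limma adjusted p = 0.0413). With scaling on ribosomal protein genes C1s1 kept its call, and those of C2 and Fcna were lost; centring the arrays on their median also ended the call of Fcna (limma adjusted p = 0.0719). Mbl1, the other mannose-binding lectin, went from 7.02 to 6.30, a change of -0.72 ± 0.06 (limma adjusted p = 5.07e-05). The other gene called lower, the ficolin Fcnb, changed by -0.18 ± 0.03 and turned to 0.29 with scaling on the labelling spikes.

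Regulators were split, with 4 of 15 higher, 7 lower and 4 not called; the counts were 2 higher and 7 lower with scaling on ribosomal protein genes, and 10 higher and 4 lower with scaling on the labelling spikes. Vtn, the plasma protein vitronectin that blocks pore assembly, fell by 2.26 (SE 0.07; limma adjusted p = 4.52e-07), from 6.91 to 4.65. Cpn2, a subunit of the carboxypeptidase that trims anaphylatoxins, fell by 1.32, and Cfi, the protease factor I, by 1.08 (SE 0.19). The PFOS means of Vtn (4.65) and Cpn2 (4.94) were under 5.62, so the sizes of their falls depend on the background too. For 5 of the 15 regulators, some of them called, both group means were under 5.62. Cd59a, a membrane protein that blocks C9 insertion and is abundant on red cells, fell by 1.20 (SE 0.05; limma adjusted p = 2.26e-06), from 9.50 to 8.30. Cd55, the decay accelerating factor of cell surfaces, rose by 0.42 ± 0.08 (limma adjusted p = 0.00395), with all 3 probe sets in that direction. Clu, clusterin, rose by 0.24 ± 0.03 (limma adjusted p = 0.000587).

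Of the 11 receptor genes measured, 7 rose and 1 fell, with a median of 0.14; with scaling on ribosomal protein genes 4 rose and 1 fell, as C5ar1, Calr and Lrp1 lost their calls. Cr2, the complement receptor of B cells and follicular dendritic cells, rose by 0.60 ± 0.03 (limma adjusted p = 7.95e-06). The integrin chains Itgax and Itgb2, which pair as complement receptor 4, rose by 0.55 ± 0.03 and 0.35 ± 0.03. The receptors C3ar1 (0.14 ± 0.08), Itgam (0.08 ± 0.05) and Vsig4 (0.08 ± 0.04) were not called. Their means lay under 5.62 in both groups, as did those of C5ar1, 1 of the 7 that rose. The values of these genes thus say little about them. The 1 gene lower was Cd93, at -0.12 ± 0.04 (limma adjusted p = 0.0472), and 1 of its 5 probe sets had the opposite sign; with arrays centred on their median it was not called (limma adjusted p = 0.0504). Cd93 was higher with scaling on the labelling spikes, where all 11 receptors were.

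**Figure D3:**
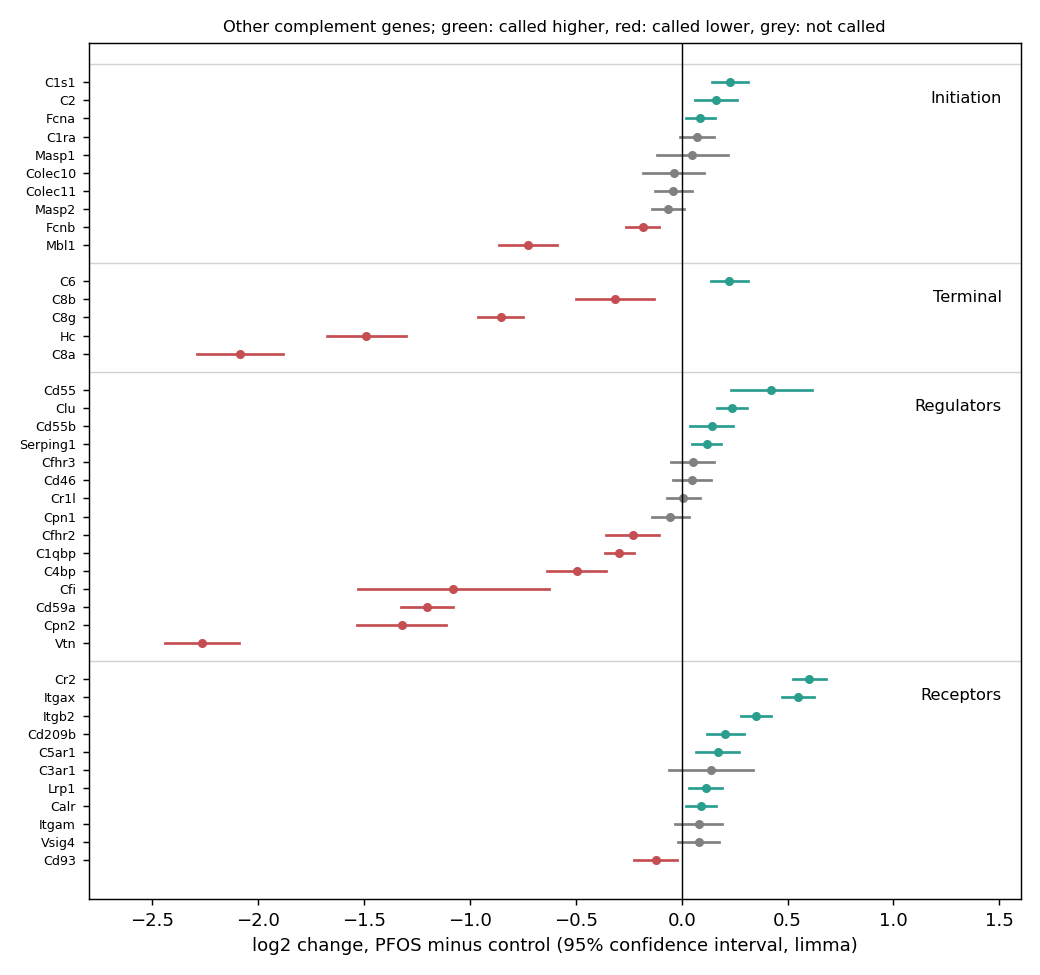
Change of 41 other complement genes on the log2 scale, PFOS minus control (horizontal axis), with 95% confidence intervals from limma, ordered within 4 roles. Vtn (-2.26), C8a (-2.09) and Hc (-1.49), whose PFOS means lie under 5.62, are drawn farthest to the left and Cr2 (0.60) farthest to the right; with scaling on the labelling spikes all intervals move to the right by 0.48, and the values of C8b, Fcnb, Cfhr2, C1qbp and Cd93, called lower here, turn above 0.

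Marker genes of the cells that make these components moved in the same arrays. Of 18 measured macrophage markers of the spleen, 12 were higher and 0 lower, with a median change of 0.12. Over all genes 32.9% were called higher and 20.0% lower. With scaling on ribosomal protein genes 8 of the macrophage markers were higher and 0 lower. Spic, the transcription factor of red pulp macrophages, rose by 0.57 ± 0.03 (limma adjusted p = 9.64e-06), Vcam1 by 0.68 ± 0.03, Mertk by 0.45 ± 0.03 and Cd163 by 0.33 ± 0.03. Marco, of marginal zone macrophages, read 10.31 in both groups, and Siglec1 differed by -0.04 ± 0.05. Neither was called in the deposited values. Adgre1 (0.02 ± 0.04), Hmox1 (0.04 ± 0.03), Cd5l (0.03 ± 0.03) and Fcgr1 (0.09 ± 0.03) were not called either. The log2 of the summed macrophage marker signal was 15.19 in every control array and ran from 15.43 to 15.44 in PFOS. Such a sum of unlogged values weighs the brightest genes most. Here these were Lyz2 (13.40 in control and 13.57 in PFOS), Csf1r (12.97 and 13.11) and Vcam1 (12.27 and 12.95). The C1q changes of 0.14 to 0.42 lay within the range of the macrophage markers (-0.04 to 0.68). They also lay within those of the dendritic cell markers (0.05 to 0.55) and the lymphocyte markers (0.14 to 0.68). The part of macrophages in the C1q result was not tested.

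Hepatocyte markers moved with C9 and Mbl2. Of 19 measured, 18 fell and 0 rose, and 17 of the falls were at least 2-fold; the median change was -2.95. Alb, serum albumin, went from 11.03 to 5.87, and the log2 of the summed hepatocyte signal ran from 12.90 to 12.91 in control and from 9.81 to 9.86 in PFOS. The PFOS means of 11 of the 19 lay under 5.62. Beside this median stand the changes of C9 (-3.03), Mbl2 (-1.23) and Cfb (-0.19). Mbl2 and C9 also ended under 5.62, and the control mean of Mbl2 was only 6.14, so the sizes of these falls are not ranked here. Apob, at -0.16 ± 0.07, was the hepatocyte marker that was not called. With scaling on the labelling spikes Apob turned higher (0.32), Tat lost its call and 17 markers were lower. The part of liver transcripts in the falls of C9 and Mbl2 was not tested. Of 5 genes listed for Kupffer cells, 1 was higher (Timd4, 0.36 ± 0.05) and 0 lower, where 32.9% of all genes were called higher. The list is not particular to these cells, since Cdh5 is an endothelial gene and spleen macrophages also make Timd4. The defining Clec4f read 5.81 in control and 5.77 in PFOS, close to the 40th percentile of 5.62. With scaling on the labelling spikes all 5 listed genes were higher.

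Neutrophils are a source of properdin, and most of their markers went the other way from Cfp 1452279_at in the deposited values. Of 9 neutrophil markers measured, 6 were lower and 1 higher (Csf3r, 0.19 ± 0.03), where 20.0% of all genes were lower and 32.9% higher. Their median was -0.37, which turned to 0.11 with scaling on the labelling spikes. The granule proteins Ltf and Camp changed by -0.96 ± 0.05 and -0.96 ± 0.03, and S100a8 by -0.32 ± 0.03, which turned to 0.16 under that scaling. The log2 of the summed neutrophil signal ran from 12.51 to 12.54 in control and from 12.03 to 12.07 in PFOS. Lymphocyte markers check the labelled tissue: Cd79a read 8.14 in control and 8.76 in PFOS, and Cd3e 8.82 and 8.96. All 6 measured were higher, where 32.9% of all genes were. With scaling on ribosomal protein genes 5 were higher and Cd3e was not called (limma adjusted p = 0.124).

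**Figure D4:**
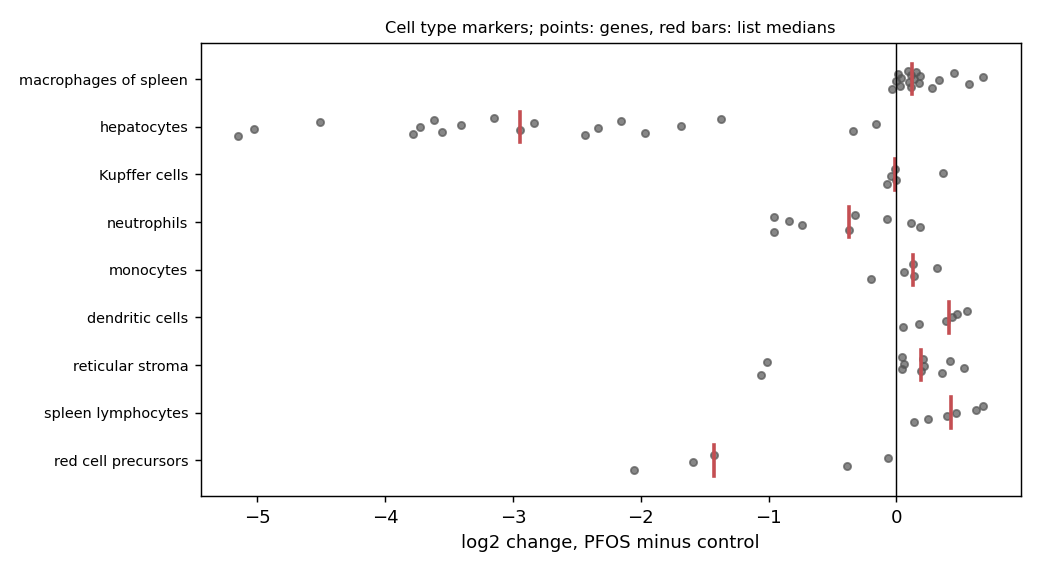
Change of cell type marker genes on the log2 scale, PFOS minus control (horizontal axis), for 9 lists; points are genes and red bars list medians. Hepatocyte markers centre on -2.95 and macrophage markers on 0.12; with scaling on the labelling spikes all points move to the right by 0.48 and the neutrophil median turns to 0.11.

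The direction of small changes depends on how the arrays are put on 1 scale. The bacterial transcripts added before labelling averaged 6.29 ± 0.0038 in control and 5.81 ± 0.025 in PFOS (SD, n = 3). These averages of 27 probe sets lay near the median probe set of the arrays (6.15 to 6.18). How far background weighs on them was not tested. Scaling on them moves every change up by 0.48 and the median of all probe sets from 0.04 to 0.52. Under that scaling C9, at -2.56, and Mbl2, at -0.75, were still called lower, and the C1q probe sets lay between 0.62 and 0.90. Cfb, at 0.29, then lay above 0 but below the median of all probe sets of 0.52. Its deposited change of -0.19 lay below the median of 0.04. Scaling on array medians, ribosomal protein genes or spikes moves every change by 1 amount, so positions relative to that median cannot alter there. They could alter only with quantile normalization. With it the C1q probe sets stayed above the median of all probe sets (0.03), and C9, Mbl2 and Cfb below it.

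**Figure D5:**
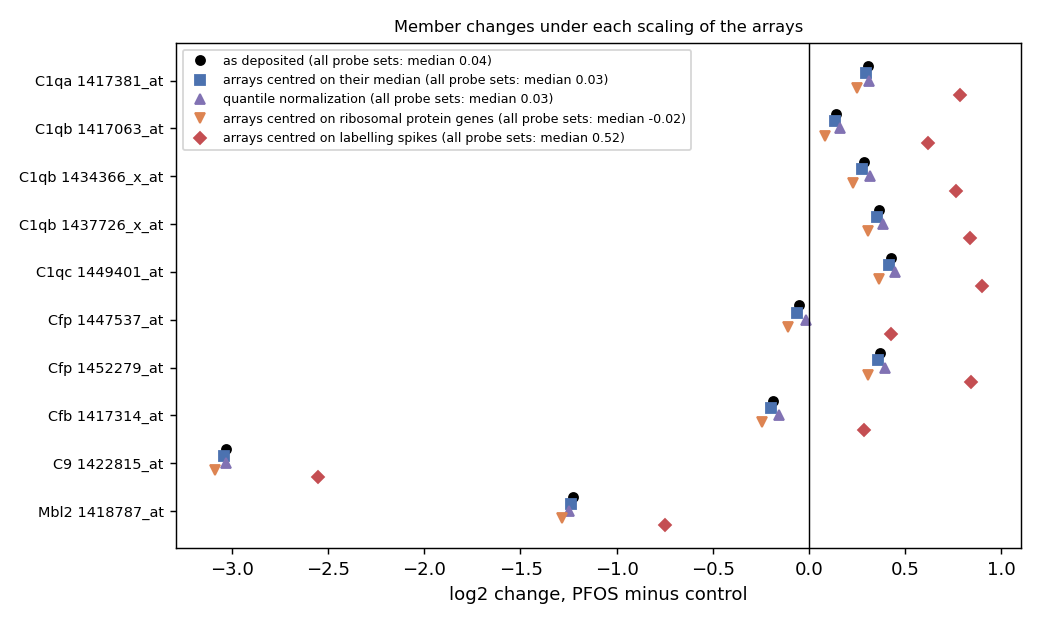
Change of each member probe set on the log2 scale (horizontal axis) as deposited and under 4 other scalings of the arrays (symbols). C9 and Mbl2 stay to the left of 0 and the C1q probe sets to the right under all 5, whereas Cfb is at -0.19 as deposited and at 0.29 when the labelling spikes set the scale, and Cfp 1447537_at at -0.05 and 0.42.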

How the data were processed

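Total RNA (6 ug) from the 6 spleens was hybridized to Affymetrix arrays, per the labels' protocols. The deposited log2 values came from RMA, per the submitters' processing notes; its version is not given in the sources used here. Detection calls and raw scanner data were not analysed here. Members and lists were chosen with earlier results of these data known.

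All 45037 non-control probe sets entered 1 fit with limma 3.58.1 (R 4.3.3; lmFit and eBayes, two-sided, Benjamini-Hochberg), with no filter on low values, because a filter keeps a low gene only through the group where it is high. Calls are at an adjusted p under 0.05. Of these probe sets, 34945 had 1 symbol, 932 several and 9160 none. Errors are limma's SE, and 3 arrays a group limit the precision. The labels call the arrays biological replicates; p-values measure only their spread, which may be technical. The fit was tested on simulated data.

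Named genes are the members, the 3 nearest profiles of each, up to 6 called genes with the largest change per direction in each list, and the defining markers. Mbl1, C8g, C8b, C6, C1ra, C2, Fcna, Fcnb, Cd93, C3ar1, Itgam, Vsig4, C5ar1, Calr, Lrp1, Tat, Cfhr2, C1qbp, Marco, Siglec1, Adgre1, Hmox1, Cd5l, Fcgr1 and Apob were named after their values were seen. Alternatives covered the replicate block, filters, scaling, the variance prior, array weights, the threshold, the type of probe set and leaving out each array. For scaling, ribosomal protein genes were the 114 probe sets whose symbol starts with Rpl or Rps and a digit. That pattern can also match kinase genes named after a ribosomal protein.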

Additional observations from a re-analysis of the deposited data

How the results depend on the processing

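The counts of 3 member probe sets called lower and 6 called higher were unchanged without any 1 array, with arrays centred on their median, with quantile normalization, with a trended and robust variance prior and with array weights. With a filter at the 40th percentile, Mbl2 dropped out, so 1 member probe set was at least 2-fold lower, and the difference of the class medians was -1.92 with all probe sets and -1.97 with 1 probe set per gene. With scaling on the labelling spikes, 1 member probe set was at least 2-fold lower, Cfb turned to 0.29 and Cfp 1447537_at to 0.42; 31 other complement genes were called higher and 8 lower. With scaling on ribosomal protein genes, and at an adjusted p under 0.01, 8 other complement genes were called higher. The member probe sets called higher and lower were 8 and 2 with spike scaling and 5 and 4 with ribosomal scaling. Of the calls over all probe sets, 96.4% were higher with spike scaling and 43.0% with ribosomal scaling. Leaving out 1 array at a time gave a class difference between -1.72 and -1.35. Deviations of same-numbered arrays had correlations of 0.226, 0.0929 and 0.0536, and those of unlike numbers ran from -0.146 to 0.0704. The titles name no pairs, so the main fit did not pair the arrays. Whether arrays numbered 1 shared a processing step was not tested. With the replicate block, 3 member probe sets were lower and 6 higher, and 14 other complement genes were called in each direction.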

Other observations

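Lists of other cells of the spleen were read in the same arrays. Over all genes 32.9% were called higher and 20.0% lower, and the monocyte counts below lay near these shares. Of 6 measured dendritic cell markers, which belong to cells that also make C1q, 5 rose and 0 fell (median change 0.41); the largest changes were those of Itgax (0.55 ± 0.03) and Dpp4 (0.48 ± 0.03). Of 5 monocyte markers, 2 rose and 1 fell (median 0.13); Ccr2 rose by 0.32 ± 0.04, and F13a1 changed by -0.20 ± 0.05, but all 5 were higher with scaling on the labelling spikes. Of 11 reticular stroma markers, 6 rose and 2 fell. The 2 that fell were the collagens Col1a1 (-1.06 ± 0.09) and Col3a1 (-1.01 ± 0.03), while the follicle chemokine Cxcl13 rose by 0.53 ± 0.03 and the receptor Pdgfra by 0.42 ± 0.03, although 1 of the 3 probe sets of Pdgfra had the opposite sign. Of 5 red cell precursor markers, 4 were lower, led by Klf1 (-2.05 ± 0.03); with scaling on the labelling spikes 3 were lower and 2 higher.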
